A study of Rattus norvegicus and Homo sapiens with 12 samples.

Results

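The 10 nuclear genes described here encode proteins that transcribe mitochondrial DNA or that stabilise, polyadenylate or degrade the resulting RNA. They are TFAM, TFB2M, POLRMT, TEFM, LRPPRC, SLIRP, MTPAP, PNPT1, SUPV3L1 and TBRG4. They were chosen by function and matched by Ensembl identifier in the count table of DU145, a human prostate cancer cell line, which lists 60107 genes. Of these, 14316 had enough counts to be tested, and all 10 members were among them. RNA was profiled by QuantSeq in 3 samples of F0 DU145, the parental population, and 3 samples of F2 DU145, the population that persisted after conditioned media (CM) of human mesenchymal stem cells (MSCs) and that the labels call MSC educated. Both populations were grown in DMEM with 10% FBS, and F0 had no MSC CM. The labels give 2 rounds of MSC CM of 72 h each for F2, while the description of the series gives 3. The sources do not say whether each F2 sample came from its own selection, so SD and p measure only the spread between these samples, which may be technical.

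Mitochondrial DNA is transcribed by a dedicated RNA polymerase into long RNAs from both strands, and excision of the tRNAs frees the mRNAs between them. The LRPPRC-SLIRP complex binds the mRNAs and protects them, MTPAP adds their poly(A) tails, and the helicase SUPV3L1 and the nuclease PNPT1 together degrade RNA in the matrix. All of these proteins are encoded in the nucleus and imported, so their mRNAs and the mitochondrial mRNAs are made by separate polymerases.

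The ends of mitochondrial mRNAs are shown first, because the tail that MTPAP adds at the end of an mRNA is also where QuantSeq primes. Several of these genes stop short of a full stop codon, and the tail supplies the missing A bases. Each line below gives the last 30 bases of an annotated transcript (GRCh38, GENCODE release 29, plus strand of the mitochondrial genome), with its final stop codon, or the part of it that is encoded, in capitals.
MT-ND1, chrM:4233-4262: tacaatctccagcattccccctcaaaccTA
MT-ND2, chrM:5482-5511: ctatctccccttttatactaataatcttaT
MT-ATP6, chrM:9178-9207: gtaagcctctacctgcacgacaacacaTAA
MT-ND1 and MT-ND2 end in a partial codon. MT-ATP6 is annotated with a full TAA, but its last base, 9207, is also the annotated first base of MT-CO3. Whether the MT-ATP6 mRNA keeps that base or gains it from the tail was not tested. MT-ND1, MT-ND2 and MT-ATP6 are shown because they had the largest rises of the 13 mitochondrial mRNAs. Not every annotated end is an mRNA end: MT-ND4L ends at 10766 inside MT-ND4, which starts at 10760, and MT-ATP8 ends at 8572 inside MT-ATP6, which starts at 8527, and each of these pairs shares 1 mRNA. QuantSeq primes on the poly(A) tail, so for these RNAs more molecules and more molecules with a tail long enough to prime cannot be told apart.

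Counts assigned to genes lay between 15879480 and 16479239 per library. Reads outside genes were 9.60% to 10.0% of uniquely placed reads in F0 and 11.3% to 11.9% in F2, and alignments to several places were 0.591 to 0.624 per gene count in F0 and 0.536 to 0.572 in F2. Their part in the differences below was not tested. Of 6 epithelial markers none was at 0, and their summed level was 1030 to 1100 CPM (counts scaled to a common library size) in F0 and 1330 to 1340 CPM in F2. The sum was carried by the keratins, and its members moved apart: 4 of the 6 rose, KRT19 by 0.67 on the log2 scale (edgeR adjusted p = 8.93e-09), while CDH1, the adhesion protein E-cadherin, fell from 14.0 ± 1.79 to 5.78 ± 0.091 CPM (SD, n = 3; -1.27, adjusted p = 7.63e-07). Of 16 MSC markers, THY1, LUM, POSTN, CXCL12, SPARC and VCAM1 had 0 counts in all 6 libraries, and the summed level was 11.1 to 14.2 CPM in F0 and 12.5 to 13.0 CPM in F2. Within that sum NES, an intermediate filament gene, rose from 5.73 ± 0.847 to 8.05 ± 0.573 CPM (0.49, adjusted p = 0.0223), and COL1A2, a collagen gene with too few counts to be tested, had 9 to 17 counts in F0 and 2 to 4 in F2. The part of these markers in the differences below was not tested.

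Of the 10 factors, SLIRP rose and TFAM fell in F2, and the other 8 did not pass the test (edgeR quasi-likelihood test, adjusted p under 0.05 over all tested genes). The share passing was thus 20.0%, beside 18.2% of all tested genes (9.49% higher and 8.67% lower in F2). SLIRP binds mitochondrial mRNAs with LRPPRC, and TFAM packages mitochondrial DNA and starts its transcription. The differences were small: the 95% interval of each of the 10 lay inside a 2-fold change in either direction, and the bounds reached from -0.54 to 0.34 on the log2 scale. The median log2 fold change of the 10 was -0.08, with 8 below 0 and 2 above, beside -0.002 over all tested genes. The F0 and F2 libraries did not overlap for 2 of the 10, and 34.0% of all tested genes showed such a separation.

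The direction of small changes depended on the scaling between libraries. TMM scaling gave 52.3% higher calls among 2599 genes, and scaling by library size alone gave 22.9% higher among 3637 and moved the median of all genes from -0.002 to -0.09. Under library size alone, TFAM, TFB2M, POLRMT, LRPPRC and TBRG4 passed as lower and SLIRP as higher, 6 of the 10 in all. SLIRP was higher and TFAM lower under both. Values that follow use TMM unless another setting or the alternatives are named. Ratios of counts within a library use raw counts.

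**Figure D1:**
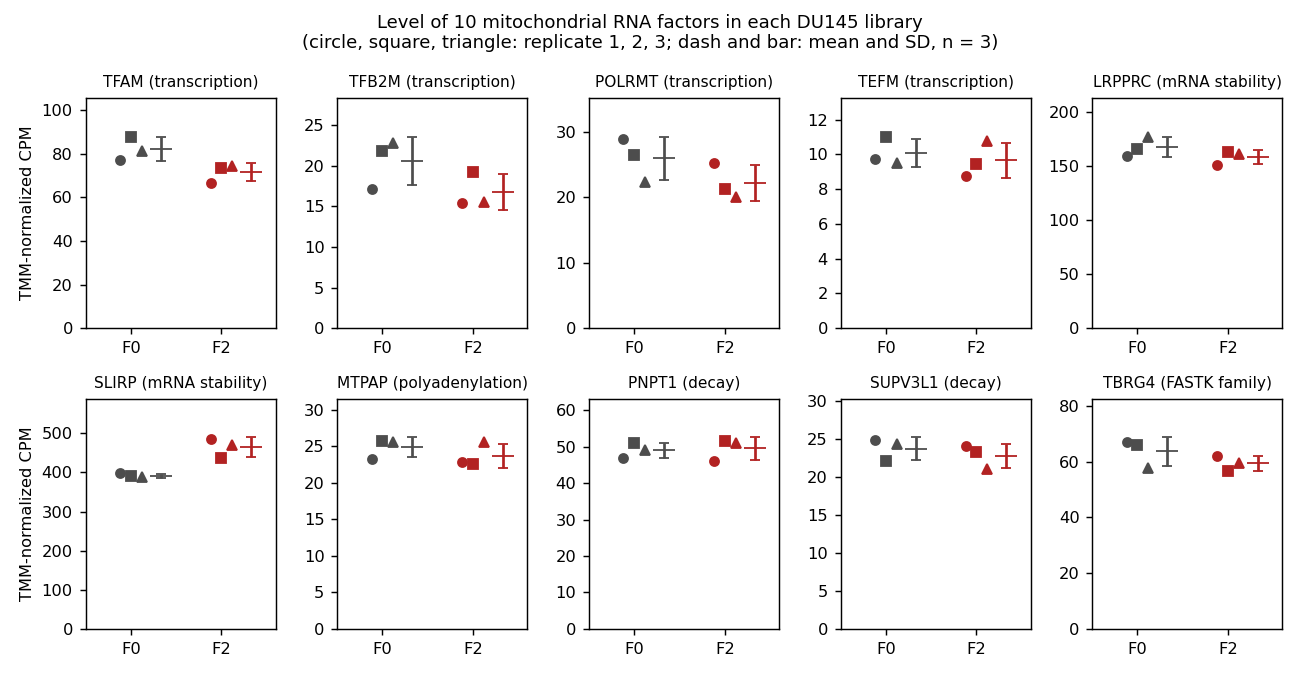
Level of each of the 10 factors (CPM, TMM-normalized, linear axis from 0 in each panel) in the 3 F0 and 3 F2 DU145 libraries; circle, square and triangle are replicates 1, 2 and 3, and dash and bar the mean and SD of a population. All F2 points of SLIRP lie above, and all F2 points of TFAM below, the F0 points, and the other 8 panels overlap.

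TFAM, TFB2M and POLRMT form the initiation complex at mitochondrial promoters, and the point estimate of each was below 0. TFAM (chromosome 10, 58385022 to 58399221, plus strand of GRCh38, 7 exons) was 77.3, 87.9 and 81.4 CPM in the F0 libraries and 66.8, 73.5 and 74.4 CPM in the F2 libraries. Every F2 library lay below every F0 library. The means were 82.2 ± 5.37 CPM (SD, n = 3) and 71.6 ± 4.19 CPM, a log2 fold change of -0.20 (SE 0.061, edgeR adjusted p = 0.0272). This call was the less firm of the pair. It held in 3 of 6 fits that each left out 1 library, and was lost without F0 replicate 2 (-0.15, adjusted p = 0.19), F0 replicate 3 (-0.21, adjusted p = 0.0539) or F2 replicate 1 (-0.15, adjusted p = 0.174); over all 13 alternatives adjusted p ranged from 0.00194 to 0.19. The fall also placed TFAM only at percentile 18.6 of the log2 fold changes of all tested genes.

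TFB2M (chromosome 1, 246540560 to 246566324, minus strand, 8 exons) opens the promoter for the polymerase. It was 17.2, 21.8 and 22.8 CPM in F0 and 15.4, 19.3 and 15.5 CPM in F2. The highest F2 library lay above the lowest F0 library, and the spread within a population was wide, at 14.6% of the mean in F0 and 13.2% in F2. The log2 fold change was -0.30 (SE 0.115), the lowest value of the 10, with an unadjusted p of 0.0166 and an edgeR adjusted p of 0.0775. TFB2M passed the threshold, as lower in F2, without F0 replicate 1 (-0.42 on the log2 scale, adjusted p = 0.0102) and without F2 replicate 2 (-0.41, adjusted p = 0.0161). It also passed with edgeR under library size alone (adjusted p = 0.0192), with no filter on low counts (0.0294) and with a replicate block (0.0308). Its adjusted p over the alternatives ranged from 0.0102 to 0.276.

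POLRMT (chromosome 19, 617224 to 633604, minus strand, 21 exons) is the mitochondrial RNA polymerase itself. It was 28.9, 26.5 and 22.4 CPM in F0 and 25.3, 21.3 and 20.0 CPM in F2, so the populations overlapped. Its log2 fold change of -0.22 (SE 0.103) had an unadjusted p of 0.0419 and an edgeR adjusted p of 0.144. Without F0 replicate 3, its lowest F0 library, the log2 fold change was -0.32 and passed as lower, with an adjusted p of 0.0439; over the alternatives adjusted p ranged from 0.0318 to 0.427. TFAM, SLIRP, TFB2M and POLRMT were the 4 members with an unadjusted p under 0.05.

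TEFM (chromosome 17, 30897336 to 30906820, minus strand, 4 exons) keeps the polymerase on its template during elongation. It had the lowest counts of the 10, 137 to 182 per library. Its level was 9.74, 11.0 and 9.53 CPM in F0 and 8.76, 9.42 and 10.8 CPM in F2. The populations overlapped, and the log2 fold change of -0.06 had a 95% interval of -0.32 to 0.19 (edgeR adjusted p = 0.767), the widest of the factors together with that of TFB2M.

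SLIRP, the RNA-binding partner of LRPPRC (chromosome 14, 77708071 to 77761104, plus strand, 4 exons), was the most abundant of the 10 by CPM. It was 397, 391 and 387 CPM in F0 and 487, 437 and 470 CPM in F2, and every F2 library lay above every F0 library. The means were 392 ± 5.23 CPM (SD, n = 3) and 464 ± 25.4 CPM. The log2 fold change was 0.25 (SE 0.0456), a 1.19-fold rise (edgeR adjusted p = 0.000763). The rise held in 6 of 6 fits that left out 1 library, where it lay between 0.21 and 0.29 on the log2 scale, and in all 13 alternatives run, with adjusted p between 2.53e-06 and 0.0161. F2 replicate 2 was the lowest of the F2 libraries. SLIRP stood at percentile 84.0 of the log2 fold changes of all tested genes, so many genes rose more.

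LRPPRC (chromosome 2, 43886508 to 43996005, minus strand, 38 exons) holds mitochondrial mRNAs with SLIRP and makes them available for polyadenylation and translation. It was 159, 166 and 177 CPM in F0 and 151, 163 and 161 CPM in F2, with overlapping libraries. The means were 167 ± 9.02 CPM (SD, n = 3) and 158 ± 6.51 CPM, a log2 fold change of -0.08 (95% interval -0.19 to 0.03, edgeR adjusted p = 0.295).

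Because both partners of the complex were read in the same libraries, their ratio needs no scaling between libraries. SLIRP counts per LRPPRC count averaged 2.34 in F0 and 2.94 in F2. The log2 ratio was 1.32, 1.24 and 1.13 in F0 and 1.69, 1.42 and 1.55 in F2, with no overlap. The difference was 0.33 (exact permutation test, two-sided, p = 0.1, adjusted p = 0.3 over 3 ratios). With 3 libraries against 3, 0.1 is the smallest p the test can give.

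**Figure D2:**
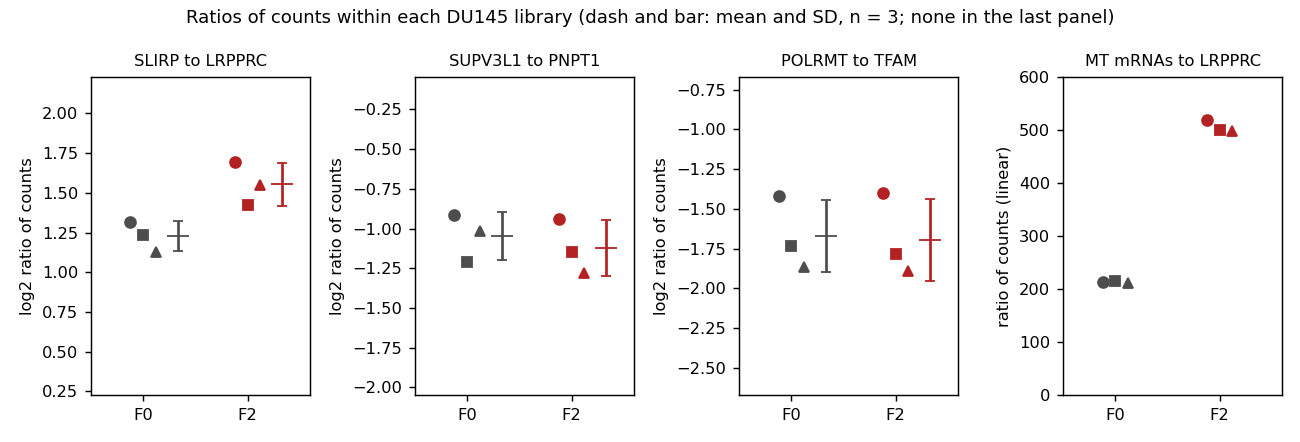
Log2 ratios of counts within each DU145 library for SLIRP to LRPPRC, SUPV3L1 to PNPT1 and POLRMT to TFAM, with mean and SD of 3 libraries beside the points, and in the last panel the linear ratio of mitochondrial mRNA counts to LRPPRC counts. The F2 points lie above the F0 points in the first and last panels and overlap them in the others.

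MTPAP (chromosome 10, 30309801 to 30374448, minus strand, 9 exons), the poly(A) polymerase that completes ends such as those of MT-ND1 and MT-ND2, did not pass the test. It was 23.3, 25.7 and 25.5 CPM in F0 and 22.9, 22.5 and 25.5 CPM in F2. The libraries overlapped, and the log2 fold change of -0.07 had a 95% interval of -0.25 to 0.10 (edgeR adjusted p = 0.615).

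The degradation pair also gave overlapping libraries. PNPT1 (chromosome 2, 55634265 to 55693910, minus strand, 28 exons), a 3′ to 5′ exonuclease that is also known as interferon-inducible, was 46.8, 51.1 and 49.1 CPM in F0 and 46.0, 51.6 and 51.0 CPM in F2. Its log2 fold change was 0.02 (95% interval -0.12 to 0.15, edgeR adjusted p = 0.899), and its sign turned in 4 of 13 alternatives. SUPV3L1 (chromosome 10, 69180232 to 69209099, plus strand, 15 exons), the helicase that unwinds RNA for PNPT1, was 24.9, 22.0 and 24.3 CPM in F0 and 24.0, 23.2 and 21.0 CPM in F2. Its log2 fold change was -0.06 (95% interval -0.24 to 0.12, edgeR adjusted p = 0.685). There were 0.484 SUPV3L1 counts per PNPT1 count in F0 and 0.459 in F2, a difference of -0.08 in the log2 ratio (exact permutation p = 0.7, adjusted p = 0.8).

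TBRG4, also known as FASTKD4 (chromosome 7, 45100100 to 45112047, minus strand, 11 exons), belongs to the FASTK family of RNA-binding proteins that set the stability of particular mitochondrial mRNAs. It was 67.0, 66.0 and 57.8 CPM in F0 and 61.9, 56.7 and 59.5 CPM in F2. F0 replicate 3 lay among the F2 libraries, so the populations overlapped. The log2 fold change was -0.10 (95% interval -0.24 to 0.04, edgeR adjusted p = 0.32).

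**Figure D3:**
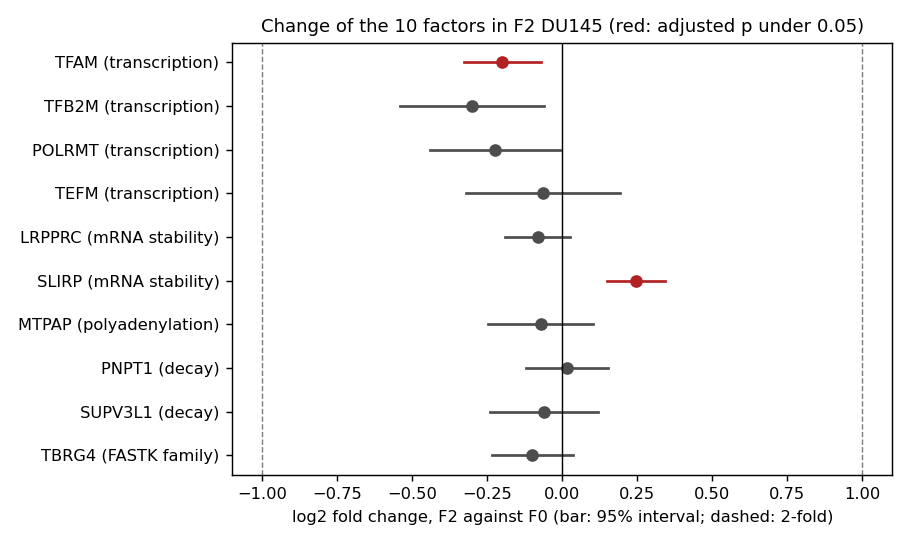
Log2 fold change of each factor in F2 against F0 DU145 (edgeR quasi-likelihood fit, 3 libraries against 3) with its 95% interval, grouped by role; red marks an adjusted p under 0.05. SLIRP lies at 0.25 and TFAM at -0.20, and no interval reaches a 2-fold change.

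The mean proportion of polymerase to TFAM was close in F0 and F2. There were 0.314 POLRMT counts per TFAM count in F0 and 0.309 in F2, and the log2 ratio differed by -0.02 (exact permutation p = 0.8, adjusted p = 0.8). Its spread was larger than the difference: the log2 ratio ran from -1.86 to -1.42 in F0 and from -1.89 to -1.40 in F2. QuantSeq gives about 1 fragment per polyadenylated transcript, so CPM also orders the genes, apart from differences in priming. SLIRP was at 428 CPM over the 6 libraries, LRPPRC at 163, TFAM at 76.9, TBRG4 at 61.5 and PNPT1 at 49.3. Below them MTPAP was at 24.2, POLRMT at 24.1, SUPV3L1 at 23.2, TFB2M at 18.7 and TEFM at 9.87 CPM. This order of neighbours held in 6 of 6 libraries except between MTPAP and POLRMT and between POLRMT and SUPV3L1, where the first exceeded the second in 3 of 6. The RNA-binding pair thus stood at percentiles 97.7 and 92.0 of all tested genes by level, and the polymerase with its promoter-opening partner TFB2M at 57.2 and 51.6.

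The mitochondrial mRNAs that these proteins make and bind were all higher in F2 (13 of 13 past the threshold, median log2 fold change 1.11, range 0.28 to 1.53, beside 9.49% of tested genes called higher). Their summed level was 34100, 35800 and 37300 CPM in F0 and 78200, 81400 and 80300 CPM in F2, a 2.24-fold ratio of means with no overlap (exact permutation p = 0.1, the smallest possible). Over the same libraries the summed level of the 10 factors was 852, 868 and 857 CPM in F0 and 908, 877 and 908 CPM in F2, a 1.05-fold ratio (exact permutation p = 0.1). SLIRP carried that sum, since the other 9 factors together went from 467 ± 11.9 CPM (SD, n = 3) to 434 ± 10.3 CPM.

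Set against the polymerase and against both binding proteins, mitochondrial mRNA was higher in F2. Per LRPPRC count there were 214, 216 and 211 mitochondrial mRNA counts in F0 and 519, 500 and 499 in F2. Per SLIRP count there were 85.7, 91.6 and 96.5 in F0 and 161, 186 and 171 in F2, and per POLRMT count 1180, 1350 and 1670 in F0 and 3090, 3820 and 4010 in F2. The populations did not overlap in any of these ratios (exact permutation p = 0.1 for each). All share the same numerator, whose summed level itself rose 2.24-fold with no overlap. Their separation thus restates that rise and is not a further result. These ratios compare mRNAs and say nothing of protein levels. The 6 mitochondrial mRNAs annotated with a partial stop codon had a median log2 fold change of 1.21 (0.90 to 1.33). The 7 annotated with a full final codon had one of 0.97 (0.28 to 1.53), so the ranges overlapped. These groups rest on the annotation alone. MT-ATP6, which gave the 1.53, was counted as full although its last base is also the first base of MT-CO3. The group with a full codon also includes MT-ND4L and MT-ATP8, whose annotated ends lie inside a shared mRNA and carry no tail. Whether the others of that group carry a tail at the annotated end was not tested, so the groups do not separate mRNAs by tail. MT-ATP6 went from 4741 ± 293 CPM to 13657 ± 454 CPM and MT-ND4L, the smallest rise and named after its value was seen, from 1051 ± 14.3 CPM to 1278 ± 29.9 CPM (SD, n = 3 in each).

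**Figure D4:**
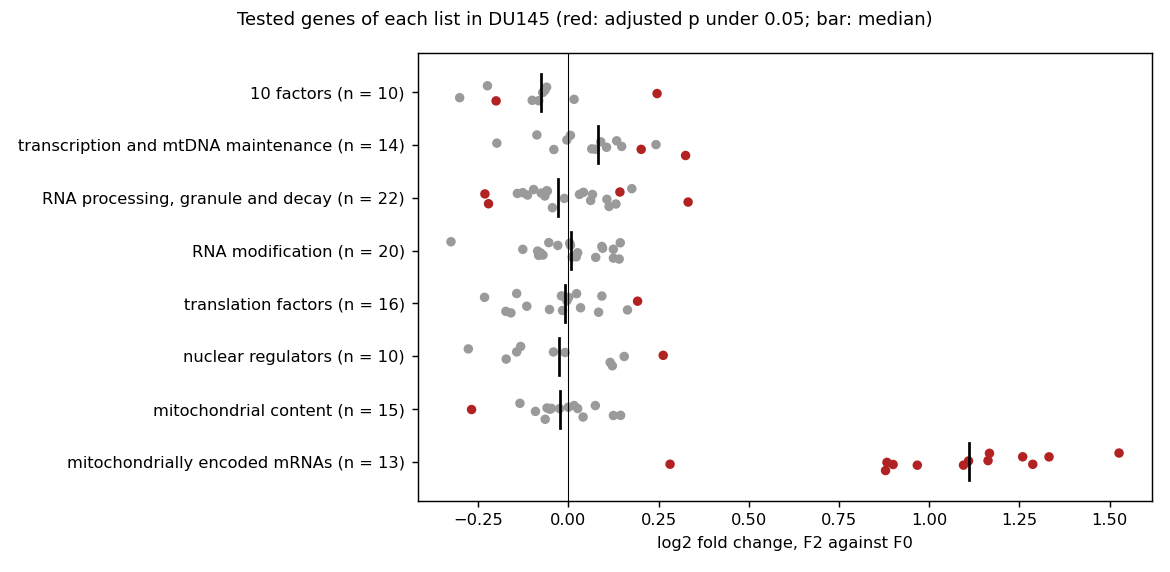
Log2 fold change in F2 against F0 DU145 of every tested gene in the 10 factors and 7 further lists; each point is a gene, red marks an edgeR adjusted p under 0.05 and the bar is the median. The nuclear lists centre between -0.08 and 0.08, and the 13 mitochondrially encoded mRNAs centre at 1.11.

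The rest of the nuclear apparatus for mitochondrial gene expression was read from 6 further lists, each called in the same fit over all genes, of which 18.2% passed. Of 14 genes for transcription and maintenance of mitochondrial DNA, 2 rose and 0 fell (median log2 fold change 0.08). SSBP1, the single-stranded DNA-binding protein of the replication fork, rose from 213 ± 3.39 to 245 ± 7.29 CPM (log2 fold change 0.20, edgeR adjusted p = 0.00308). MGME1, a nuclease that trims mitochondrial DNA ends, rose from 22.7 ± 2.05 to 28.5 ± 0.826 CPM (0.33, adjusted p = 0.00932). The MGME1 call was lost without F0 replicate 2 (adjusted p = 0.0739), and the SSBP1 call under library size alone (adjusted p = 0.0669). TFB1M, the paralog of TFB2M that methylates ribosomal RNA and was named for that relation after its value was seen, stood at 0.11 on the log2 scale (adjusted p = 0.432).

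Of 22 genes for RNA processing, RNA granules and decay, 2 rose and 2 fell (median -0.03). PTCD1, a pentatricopeptide repeat protein, rose from 20.1 ± 1.99 to 25.3 ± 1.25 CPM (log2 fold change 0.33, edgeR adjusted p = 0.013), and ELAC2, which cuts the 3′ ends of tRNA precursors, from 118 ± 3.17 to 130 ± 1.54 CPM (0.14, adjusted p = 0.0417). REXO2, which degrades the shortest RNA fragments left by PNPT1 and SUPV3L1, was 232, 236 and 230 CPM in F0 and 198, 195 and 205 CPM in F2. It fell by 0.22 on the log2 scale (adjusted p = 0.00131), and the fall held in 6 of 6 fits that left out 1 library. LACTB2, a mitochondrial endoribonuclease, fell from 29.6 ± 1.13 to 25.3 ± 1.46 CPM (-0.23, adjusted p = 0.0449). The calls of ELAC2 and LACTB2 were the weakest, holding in 1 and 2 of 6 such fits, with adjusted p up to 0.146 and 0.202. ELAC2 was lost without F0 replicate 1, 2 or 3 or F2 replicate 1 or 3, LACTB2 without F0 replicate 2 or 3 or F2 replicate 1 or 3, and both with DESeq2 (adjusted p = 0.0694 and 0.0969). PTCD1 was lost without F0 replicate 2 (adjusted p = 0.0976) or F2 replicate 1 (adjusted p = 0.0707).

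Of 20 genes for modification of mitochondrial tRNA and rRNA, 0 passed with edgeR and 0 with DESeq2, and 1 had an unadjusted edgeR p under 0.05 (median log2 fold change 0.01). Of 16 translation factors, 1 passed: GFM1, a mitochondrial elongation factor, rose from 91.9 ± 1.41 to 105 ± 2.86 CPM (0.19, adjusted p = 0.00982), a call lost without F0 replicate 2 (adjusted p = 0.0522). Like SSBP1, the rises of PTCD1, ELAC2 and GFM1 no longer passed under library size alone (adjusted p = 0.0537, 0.444 and 0.139). Of 11 nuclear regulators of mitochondrial genes, 10 could be tested and 1 passed. ESRRA, a nuclear receptor that activates genes of oxidative metabolism, rose from 45.2 ± 0.740 to 54.2 ± 1.53 CPM (0.26, adjusted p = 0.00416), and held in 6 of 6 fits that left out 1 library. PPARGC1A, a coactivator of ESRRA, named after its value was seen, had 0 counts in all 6 libraries and was not tested. PPARGC1B and PPRC1 of the same list, also named after their values were seen, were present and did not pass. PPARGC1B was at 7.50 CPM over the 6 libraries (-0.14, adjusted p = 0.542) and PPRC1 at 56.3 CPM (0.12, adjusted p = 0.183).

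Of 15 genes taken as a measure of mitochondrial content (import, chaperones, citrate synthase, inner membrane), 0 rose and 1 fell, with a median log2 fold change of -0.02. HSPA9, the matrix chaperone of protein import, fell from 259 ± 5.55 to 215 ± 10.2 CPM (-0.27, adjusted p = 0.000394), a fall that held in 6 of 6 fits that left out 1 library. Of the others, named after their values were seen, TOMM20 of the outer membrane import receptor was at 142 CPM in both populations, and CS, citrate synthase, stood at 0.13 on the log2 scale (adjusted p = 0.0939). In bulk RNA, a change in the level per cell and a change in the share of cells that express a gene cannot be told apart, for these genes and for the 10 factors.

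The 7 pseudogenes named after TFAM, PNPT1, SLIRP or POLRMT had at most 4 counts in any library. In 3 cases another gene starts within 1 kb on the opposite strand. ALKBH1, which starts 51 bases from SLIRP, differed by 0.13 on the log2 scale (edgeR adjusted p = 0.568), and CNST, 120 bases from TFB2M, by -0.04 (adjusted p = 0.896). ADAP2, which starts 476 bases from TEFM and overlaps it, fell from 11.2 ± 0.875 to 8.11 ± 1.15 CPM (SD, n = 3; -0.47, adjusted p = 0.0144). An antisense gene lies across the 3′ UTR of TEFM, with 34 to 51 counts per library beside the 137 to 182 of TEFM, and the sources used here do not give the strand setting of the counting, so reads of the pair may have been divided or set aside as ambiguous. SNW1, named after its values were seen, overlaps the SLIRP locus on the opposite strand, outside the 3′ UTR of the SLIRP transcript examined. SLIRP has 8 annotated coding transcripts with 6 different 3′ ends, and overlap of SNW1 with the others was not tested. Reads of SLIRP and SNW1 may thus also have been divided or set aside. SNW1 had 2427 to 2923 counts per library and a log2 fold change of 0.02 (edgeR adjusted p = 0.818).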

How the data were processed

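QuantSeq 3′ mRNA sequencing was run on both DU145 populations, with 3 samples in each. The authors deposited raw counts per gene without normalization. The submitters' processing notes name STAR 2.5.2a, HTSeq 0.6.0 and GRCh38; the annotation and the strand setting are not given in the sources used here. Of 60107 identifiers, 56104 matched a symbol and 56531 GENCODE release 29, from which positions were taken. The summary lines of the counter, for reads not assigned to 1 gene, were left out of library sizes and tests; of these, ambiguous reads were 1.36% to 1.50% of uniquely placed reads. The 12 libraries of the series include rat PAIII, not used here because its identifiers could not be matched to gene names.

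After filterByExpr (at least 10 counts, 15 in total) and TMM scaling, F2 was compared with F0 by edgeR 4.0.16 and its quasi-likelihood F-test (limma 3.58.1, R 4.3.3; two-sided, no covariate), with Benjamini-Hochberg adjustment over 14316 genes. Ratios were compared by exact permutation over the 20 splits of 6 libraries. DESeq2 1.42.0, other scalings and filters, a replicate block and leaving out each library were the alternatives. The code was tested on simulated data. No 2 replicates were duplicates (chi-square per degree of freedom 2.20 to 5.95).

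The members, lists and tests were chosen with earlier results of these data known. Named are all 10 members, up to 3 called genes per direction of each other list with at least 5 CPM, and genes starting within 1000 bases of a member on the opposite strand; other names are marked as chosen after their values were seen, as were COL1A2 and the MSC markers at 0. Mitochondrial genes with overlapping annotations were named for that overlap. The counts carry no molecular identifiers, so PCR copies remain in them. The luminal prostate marker list is not reported here.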

Additional observations from a re-analysis of the deposited data

How the results depend on the processing

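SLIRP kept its direction and its call in all 13 alternatives, and TFAM its direction in 13 and its call in 10. Scaling by library size alone moved most counts of calls: 6 of the 10 factors passed, and in the other lists 1 gene for transcription and mitochondrial DNA maintenance, 1 for RNA modification, 2 translation factors, 4 nuclear regulators and 6 of mitochondrial content; the median of the 10 factors became -0.17 and PNPT1 -0.073, beside a shift of all genes to -0.09. Of the RNA processing list, 2 genes passed with DESeq2 and 2 with no filter on low counts; the latter tested 25426 genes. Leaving out each library in turn gave 1670 (without F0 replicate 2) to 2621 genes past the threshold over all genes and 1 (without F0 replicate 2 or F2 replicate 1) to 3 of the 10 factors (without F0 replicate 1 or F2 replicate 2). It gave 1 to 2 genes for transcription and maintenance, 1 to 4 for RNA processing, 0 to 2 translation factors, 1 to 2 regulators and 1 to 2 of mitochondrial content. PNPT1 then lay between -0.016 and 0.068 on the log2 scale and TEFM between -0.15 and 0.003, the log2 ratio of SUPV3L1 to PNPT1 differed by -0.17 to 0.004, and that of POLRMT to TFAM by -0.17 to 0.10. Over all tested genes, samples with the same replicate number did not deviate together (correlations 0.01, -0.01 and 0.03). The log2 ratio of POLRMT to TFAM had the same order of replicates in F0 and F2. In replicates 1, 2 and 3 it was -1.42, -1.73 and -1.86 in F0 and -1.40, -1.79 and -1.89 in F2. The other ratios did not keep the same order in F0 and F2. With 3 replicates, 1 such match can arise by chance, and a link to the replicate number was not tested. With a replicate block, 2867 genes and 3 of the 10 factors passed, TFB2M being the third (-0.30, adjusted p = 0.0308). The causes of these shifts were not tested. The interval of TEFM, -0.32 to 0.19, still spans a fall of the size seen for TFAM. Those of TFB2M, POLRMT, MTPAP, SUPV3L1 and TBRG4 span such a fall too. The lower bounds of LRPPRC (-0.19) and PNPT1 (-0.12) lie above it.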
